A study of Mus musculus with 9 samples.

Results

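The complement system is described here through 9 genes, which were chosen by symbol from the 32286 rows of the feature table: C3, C4b, Cfb, C1s1, C1ra, Serping1, Cd55, C3ar1 and C5ar1. C3 and Serping1 were among them because they had been seen to rise in knockout tumours, so their values in knockout against WT tumours are given as a description without a test, and those of C4b were treated in the same way. The other members in knockout against WT, and all members in Kmt2d KO against Kmt2c KO and between 4 pairs of cell classes, were tested where they passed a filter on low counts. Mural cells, T cells and the Col1a1 fibroblast subset entered no test.

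Primary tumours were grown in the mammary fat pads of female BALB/c mice from 168FARN cells, a mouse mammary tumour cell line carrying a histone H2B–mCherry reporter (H2BMc in the feature table). The 9 libraries of whole-tumour suspensions comprised 3 from WT cells, 3 from Kmt2c KO cells and 3 from Kmt2d KO cells, the knockouts having been made by CRISPR/Cas9 with pooled guides. KMT2C and KMT2D are histone H3 lysine 4 methyltransferases. The libraries of a genotype are described as biological replicates, and p-values measure the spread between these tumours, not between separately made 168FARN knockouts. The labels do not say whether each tumour came from its own mouse. The host mice carried no knockout, so that stromal and immune cells were of WT genotype in all groups.

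Complement is a cascade of plasma and local proteins that tags and lyses cells and recruits leukocytes. The proteases C1r and C1s, here C1ra and C1s1, start the classical pathway, in which C1s cleaves C4 and C2. Factor B, encoded by Cfb, forms the convertase of the alternative pathway. Both routes converge on C3, the central component, whose cleavage releases the ligand of the receptor C3ar1, while C5ar1 binds the fragment of C5. Serping1 encodes the C1 inhibitor, and Cd55 encodes decay-accelerating factor, which dismantles convertases on the cell surface. The liver is the main source of the plasma proteins, but fibroblasts, endothelial cells, macrophages and epithelial cells also make several of them.

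In mouse build GRCm38, C3 lies at chr17:57203967-57228136, C4b at chr17:34728139-34743902 and Cfb at chr17:34856374-34862514. C1s1 lies at chr6:124530344-124542392 and C1ra at chr6:124512621-124523440. Serping1 is at chr2:84765360-84775444, Cd55 at chr1:130429798-130465009, C3ar1 at chr6:122847140-122856157 and C5ar1 at chr7:16246743-16259540. All 9 are annotated as protein coding. C4b has the near copy C4a, and C1s1, C1ra and Cd55 have the near copies C1s2, C1rb and Cd55b, so that reads shared within a pair could be lost or split and these levels are uncertain to that extent.

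The 250 bases upstream of a RefSeq start are shown for C3, C1s1 and C1ra, which were among the members higher in H2BMc-positive cells of Kmt2c KO tumours. Sequences are from GRCm38.p6, 5′ to 3′ on the strand of the gene, at chr17:57228137-57228386 (minus strand), chr6:124542360-124542609 (minus strand) and chr6:124512371-124512620 (plus strand). Capitals mark matches on either strand to C/EBP (TTGCNNAA), GAS (TTCNNNGAA), the interferon-stimulated response element (ISRE) or NF-kB.
C3: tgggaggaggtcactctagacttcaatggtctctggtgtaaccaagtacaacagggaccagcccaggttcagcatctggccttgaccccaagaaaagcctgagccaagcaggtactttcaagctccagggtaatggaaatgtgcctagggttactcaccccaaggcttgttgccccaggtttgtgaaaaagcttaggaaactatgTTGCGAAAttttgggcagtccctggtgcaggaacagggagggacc
C1s1: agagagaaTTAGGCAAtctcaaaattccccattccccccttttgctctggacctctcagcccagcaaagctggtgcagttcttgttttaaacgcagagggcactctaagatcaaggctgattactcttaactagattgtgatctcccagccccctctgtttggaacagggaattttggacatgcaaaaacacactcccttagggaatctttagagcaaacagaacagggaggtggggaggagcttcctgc
C1ra: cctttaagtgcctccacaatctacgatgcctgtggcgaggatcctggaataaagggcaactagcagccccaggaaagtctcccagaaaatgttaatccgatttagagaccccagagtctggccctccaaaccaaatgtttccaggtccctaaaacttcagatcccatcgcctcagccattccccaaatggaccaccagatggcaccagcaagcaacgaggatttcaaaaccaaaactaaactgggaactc
The C3 window held 1 match, to C/EBP, 45 bases upstream of the start. RefSeq gave C1s1 a pair of starts. The window printed for it held 1 match to the same motif on the opposite strand, 242 bases upstream of its start, whereas the window of the other start (chr6:124542322-124542571) held none. The C1ra window held none. Of 32817 windows of the same length, 9.57% held a C/EBP match, 7.01% a GAS match, 2.97% an ISRE match and 0.357% an NF-kB match. The matches describe letters in these windows and were not tested for any relation to expression. The promoter table held 6 of the 9 members.

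After the limits on genes and mitochondrial counts, 58645 of 89147 barcodes were kept, with 939 to 14525 cells per library. The libraries held 21529691 to 125617312 unique molecular identifiers (UMIs), each counting a captured RNA molecule. WT libraries held fewer cells and had 26.6 to 68.5% of barcodes over the mitochondrial limit, against 13.0 to 29.5% in knockout libraries, and the part of this difference in the results was not tested. Among kept cells, 3819 shared a barcode sequence with a cell of another library. Levels are given as CPM, the UMIs of a gene scaled to the same total of UMIs for each class and library.

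Tumour cells were taken as the 16632 cells with at least 1 H2BMc UMI, 358 to 3424 a library. Gates on fixed markers, none of them a complement gene, took 576 macrophages (31 to 137 a library) and 422 endothelial cells (29 to 69 a library). Csf1r stood at 565 to 711 CPM in the macrophage gate and at 0 to 4.91 CPM in the endothelial gate. Cdh5 stood at 977 to 1560 CPM in the endothelial gate and at 0 to 6.498 CPM in the macrophage gate. Both are markers of these gates, so the gating itself favoured this separation. Ptprc, a leukocyte gene on no marker list, was at 292 to 781 CPM in the macrophage gate and at 0 CPM in the endothelial gate. The fibroblast gate took 2548 cells, but its label went against the data, because 2111 of them had no Col1a1 UMI. Tumour cells themselves carried fibroblast-list markers at a summed 401 to 747 CPM. The gate is therefore called the fibroblast-marker gate, and its 234 cells with at least 2 Col1a1 UMIs are described apart, as a choice made after the data had been seen.

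Kmt2c RNA was at 47.6, 49.0 and 48.2 CPM in tumour cells of WT libraries 1 to 3, at 44.0, 42.1 and 57.6 CPM in Kmt2c KO and at 51.8, 51.2 and 49.0 CPM in Kmt2d KO. Kmt2d RNA was at 21.5, 19.1 and 14.99 CPM in WT, at 26.3, 21.6 and 31.1 CPM in Kmt2c KO and at 26.0, 31.8 and 24.3 CPM in Kmt2d KO. Kmt2c RNA overlapped between its knockout and WT, and Kmt2d RNA was higher in all 3 Kmt2d KO libraries than in WT, as it also was in all 3 Kmt2c KO libraries. Small deletions or insertions need not lower the RNA, so the targeted genes did not check the labels. One library stood apart from its group. Over 8594 genes other than complement genes, with each gene centred over the 9 libraries, the library labelled Kmt2d KO 2 correlated with the Kmt2c KO libraries at r of 0.28 to 0.62 and with Kmt2d KO libraries 1 and 3 at −0.67 and −0.51. Those 2 libraries correlated with each other at 0.74, with the WT libraries at 0.16 to 0.34 and with the Kmt2c KO libraries at −0.64 to −0.34, and Kmt2d KO values without library 2 rest on these 2. These are correlations across genes, which are not independent replicates. A wrong label and a tumour that differs for another reason cannot be told apart, so a Kmt2d KO value that includes this library may not be of that genotype alone. The main Kmt2d KO differences in tumour cells, macrophages and endothelial cells are given with and without it.

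The members were not all distributed alike over cell classes, as the map of pooled levels shows, although C3 and C4b, C1s1 and C1ra, and the receptors formed similar pairs. Of all C3 UMIs in kept cells, 40.9% were in H2BMc-positive cells and 31.8% in cells with Krt8 but no H2BMc UMI. The fibroblast-marker gate held 10.6%, cells of no gate 15.6% and gated macrophages 1.04%. These shares pool the genotypes. In WT libraries 1 to 3 H2BMc-positive cells gave 19, 35 and 14 C3 UMIs and the fibroblast-marker gate 297, 6 and 48. For C1s1 the pooled shares of H2BMc-positive cells and of Krt8 cells without H2BMc were 39.7 and 39.7%, and for C1ra 39.7 and 41.8%. Pooled levels in H2BMc-positive cells were 60.2 CPM for C1s1 and 63.7 CPM for C1ra. The receptors C3ar1 and C5ar1 were macrophage genes, with 67.6 and 71.6% of their UMIs in that gate. Serping1 was nearly absent from tumour cells, at a pooled 0.447 CPM, but stood at 208 CPM in endothelial cells and 1538 CPM in mural cells. Cd55 gave 148 UMIs in all kept cells, of which 60.8% were in the fibroblast-marker gate and 15 were in H2BMc-positive cells.

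**Figure D1:**
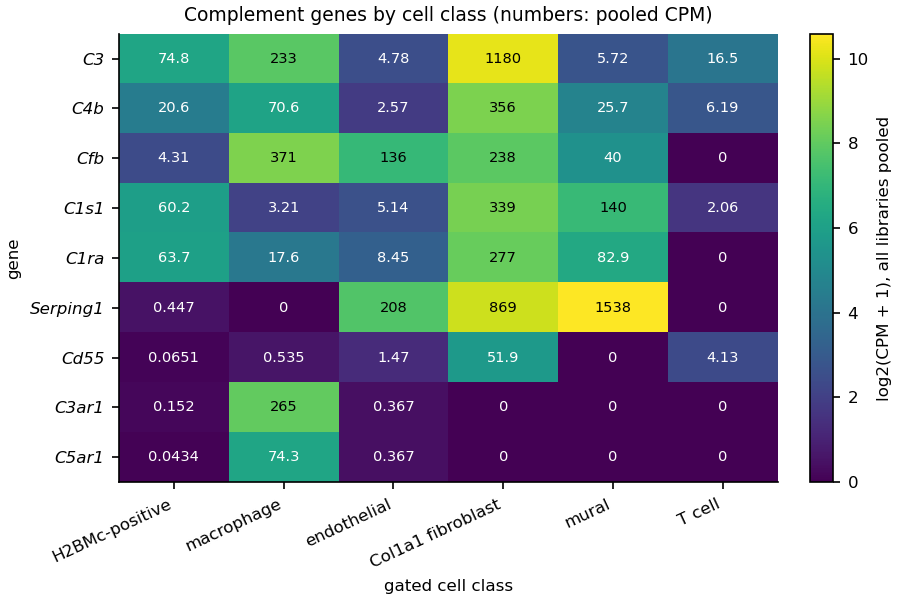
Pooled level of each of the 9 complement genes (rows) in gated cell classes (columns), coloured by log2(CPM + 1) with the CPM printed in each cell. C3ar1 and C5ar1 peak in macrophages, Serping1 in mural cells at 1538 CPM, and C3 in the Col1a1 fibroblast subset at 1180 CPM.

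Within libraries, macrophages and tumour cells differed in all 7 members that could be tested, where 64.3% of all genes were called between these classes. Macrophages were higher in C3 (log2 difference of 2.05 ± 0.30, SE, 9 libraries, edgeR adjusted p = 3.35e-07), C4b (2.15 ± 0.33, adjusted p = 7.29e-07) and Cfb (6.73 ± 0.28, adjusted p = 7.80e-22). They were lower in the proteases C1s1 (−4.33 ± 0.41, adjusted p = 1.65e-11) and C1ra (−1.99 ± 0.26, adjusted p = 2.37e-08). Both receptors were higher in macrophages, C3ar1 by 10.49 ± 0.21 and C5ar1 by 10.15 ± 0.43 on the log2 scale (adjusted p = 1.02e-31 and 1.43e-21). Endothelial cells also differed from tumour cells in 7 members, beside 62.9% of all genes. They were higher in Cfb (5.83 ± 0.28, adjusted p = 3.12e-17) and Serping1 (9.46 ± 0.37, adjusted p = 1.66e-19) and lower in C3 (−3.24 ± 0.37, adjusted p = 1.12e-08), C4b, C1s1 and C1ra. Cd55 passed this test as well, but on 4 UMIs in endothelial cells and 15 in tumour cells. C3ar1 and C5ar1, and in the endothelial comparison Serping1 and Cd55, were near 0 in tumour cells. A gene that passes the low-count filter through the class where it is high had to differ, so the counts of 7 support nothing about the members. Fits between classes pooled the 3 genotypes, over which C3 differed. Endothelial C3 was below tumour C3 in every knockout library. In WT libraries 1 to 3 it was at 0, 7.51 and 0 CPM, against 1.91, 2.43 and 1.45 CPM in tumour cells. Macrophage C3 was above tumour C3 in every library, at 52.0 to 113 CPM in WT and 218 to 427 CPM in Kmt2c KO.

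In tumour cells, the question was how loss of Kmt2c or Kmt2d went with complement expression. C3 was low in WT and high in every knockout library. C3 RNA stood at 1.91, 2.43 and 1.45 CPM in WT libraries 1 to 3, at 78.3, 152.0 and 179.8 CPM in Kmt2c KO and at 23.7, 103.1 and 17.5 CPM in Kmt2d KO. No knockout library overlapped WT, and the Kmt2d KO libraries spanned a wide range in which library 2 reached the Kmt2c KO libraries. The log2 fold change against WT was 6.10 in Kmt2c KO and 4.56 in Kmt2d KO, or 3.33 without Kmt2d KO library 2.

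C4b, the fourth component of the classical pathway, was at 1.41, 1.53 and 1.45 CPM in WT, at 26.4, 36.7 and 52.4 CPM in Kmt2c KO and at 4.35, 25.9 and 4.80 CPM in Kmt2d KO. Its knockout libraries also lay above every WT library. The log2 fold change was 4.70 in Kmt2c KO and 2.94 in Kmt2d KO, or 1.62 without Kmt2d KO library 2. The near copy C4a was at 0.10 to 0.28 CPM in WT and 0.32 to 0.90 CPM in Kmt2c KO.

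Cfb was not among the genes named as seen to rise, but all members were chosen with earlier results of these data known. Cfb was almost undetected in WT tumour cells. It gave 0, 1 and 2 UMIs in the WT libraries, and stood at 5.31, 9.22 and 10.99 CPM in Kmt2c KO and at 1.23, 3.67 and 1.28 CPM in Kmt2d KO. Every knockout library was above every WT library. The pooled level was 94.9 times that of WT in Kmt2c KO (95% counting interval 32.4 to 461) and 22.4 times in Kmt2d KO (7.55 to 109), intervals that cover counting error only. The Kmt2d KO ratio includes library 2, the highest of its group, and is not given without it. The adjusted p of edgeR's quasi-likelihood test was 7.10e-04 and 0.0341, but Cfb passed the low-count filter only through the knockout libraries, so that it had to differ and these p-values add no support. The Kmt2d KO call was lost on leaving out any WT library or Kmt2c KO library 2, at adjusted p of 0.0518 to 0.188, and held without Kmt2d KO library 2 at 0.0125.

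The classical pathway proteases were already expressed in WT tumour cells and rose less. C1ra was at 39.4, 37.5 and 35.1 CPM in WT, at 65.7, 91.6 and 110.9 CPM in Kmt2c KO and at 36.3, 76.6 and 39.5 CPM in Kmt2d KO. The Kmt2c KO libraries lay above all WT libraries, whereas Kmt2d KO libraries 1 and 3 lay within or next to the WT range. C1ra rose in Kmt2c KO by 1.25 ± 0.26 on the log2 scale (SE, edgeR adjusted p = 0.00984), and its difference in Kmt2d KO was 0.41 ± 0.26 (adjusted p = 0.465), or −0.00012 without library 2 (adjusted p = 1.00). C1s1 was at 46.3, 39.6 and 35.2 CPM in WT, at 53.7, 75.2 and 98.2 CPM in Kmt2c KO and at 40.8, 72.1 and 47.8 CPM in Kmt2d KO. It rose in Kmt2c KO by 0.90 ± 0.23 (adjusted p = 0.0217), a call that was lost without WT library 2 or 3 or without Kmt2c KO library 2 or 3 (adjusted p = 0.0633 to 0.0847), and its difference in Kmt2d KO was 0.38 ± 0.23 (adjusted p = 0.445), or 0.11 without library 2 (adjusted p = 0.787). With cells thinned to 3000 UMIs, C1s1 was no longer called in Kmt2c KO (0.59, adjusted p = 0.112).

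C1ra and C1s1, expressed in all groups, were thus both called higher in Kmt2c KO, where 9.62% of 14035 genes were called higher and 19% in either direction. Neither was called in Kmt2d KO, where 1.05% were called higher and 2.3% in either direction. The filter removed Serping1, Cd55, C3ar1 and C5ar1, which held 103, 15, 35 and 10 UMIs in all tumour cells. Macrophage-list markers summed to 12.9 to 15.9 CPM in WT tumour cells and to 15.9 to 20.9 CPM in Kmt2c KO, and the part of RNA from other cells in these values was not tested. In cells with Krt8 but no H2BMc UMI, a set added after the data had been seen, C1ra again passed the test in Kmt2c KO (higher by 1.00 on the log2 scale, adjusted p = 0.0439), and C1s1 was not (0.51, adjusted p = 0.216).

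**Figure D2:**
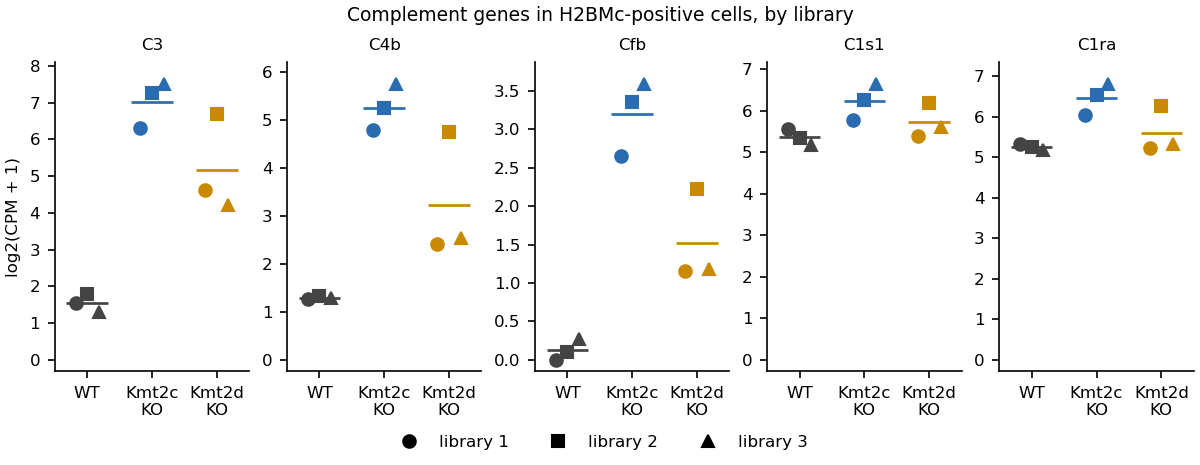
Level of C3, C4b, Cfb, C1s1 and C1ra in H2BMc-positive cells as log2(CPM + 1), 1 point per library with the shape giving its number and a line at the mean of each genotype. Kmt2d KO library 2 (square) sits with the Kmt2c KO libraries for C3 and C4b, whereas libraries 1 and 3 lie lower.

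Kmt2d KO and Kmt2c KO tumour cells were not separated by the test over all 3 libraries each. None of the 5 members tested was called by edgeR, beside 0.0713% of all genes. All 5 had an unadjusted p under 0.05 and DESeq2 called 2. Those further counts stand without the share over all genes, so they say nothing about the members apart from other genes. The differences of Kmt2d KO from Kmt2c KO were −1.54 ± 0.55 for C3 (adjusted p = 0.184), −1.75 ± 0.55 for C4b (0.151), −2.08 ± 0.41 for Cfb (0.0723), −0.52 ± 0.22 for C1s1 (0.253) and −0.84 ± 0.25 for C1ra (0.141). Without Kmt2d KO library 2, all 5 were called lower in Kmt2d KO, with differences of −2.76 for C3 (adjusted p = 2.65e-05), −3.08 for C4b (2.14e-06), −2.77 for Cfb (4.50e-05), −0.78 for C1s1 (0.00977) and −1.25 for C1ra (1.50e-04). In that fit 2831 of 14134 genes were called. The library was singled out after its values were seen, so the p-values of that fit add no support.

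C3 was detected in more tumour cells as well as at a higher level. A C3 UMI was found in 2.47, 1.95 and 2.79% of H2BMc-positive cells in WT, in 25.4, 38.1 and 42.4% in Kmt2c KO and in 12.3, 30.1 and 11.8% in Kmt2d KO. Depth differed between the groups, with a median of 13729 to 24080.5 UMIs a cell in WT libraries against 8657 to 14771 in knockouts. After thinning each cell to 3000 UMIs, which left out 6 to 382 shallower cells a library, the shares were 0.455, 0.657 and 0.852% in WT, 14.8, 23.9 and 26.8% in Kmt2c KO and 5.62, 16.4 and 4.79% in Kmt2d KO. T cells, which should lack C3, held a C3 UMI in 2.03% of the 148 cells of Kmt2c KO library 2 and in none of the cells of the other libraries, at a median of 1350 UMIs a cell over all T cells. WT libraries held only 29 T cells, too few and too shallow to give a background for the low WT shares, and the part of free RNA in those was not tested. C3-positive cells held a mean of 1.0 to 1.5 C3 UMIs in thinned WT cells, 2.23 to 2.52 in Kmt2c KO and 1.53 to 2.49 in Kmt2d KO.

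**Figure D3:**
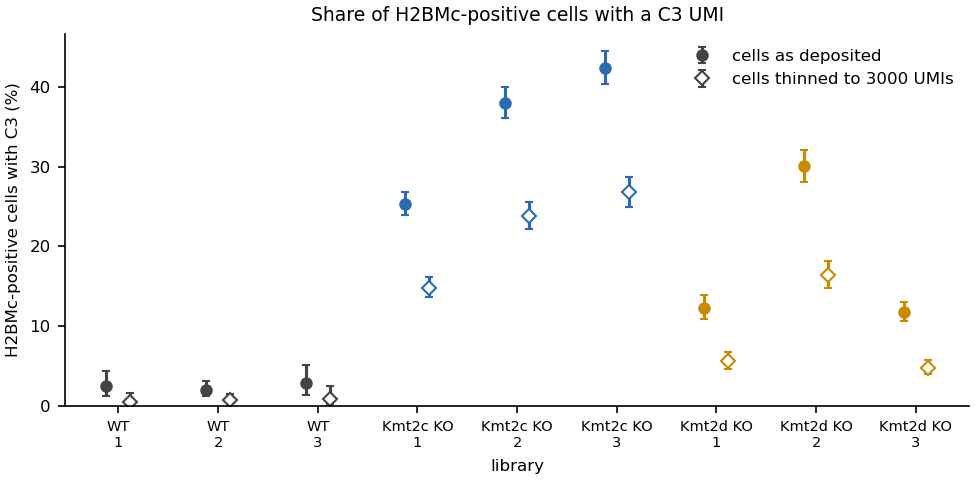
Percentage of H2BMc-positive cells with at least 1 C3 UMI in each library, with exact 95% binomial intervals, for cells as deposited (filled circles) and thinned to 3000 UMIs (open diamonds). WT libraries stay below 3% in both, and Kmt2c KO libraries lie between 25.4 and 42.4% as deposited.

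In tumour cells of both knockouts, C3 was detected more often in cells that also held a UMI of another early component. In thinned cells of Kmt2c KO libraries 1 to 3, C3 was detected in 32.4, 43.0 and 48.3% of cells with a C4b UMI and in 13.1, 21.1 and 22.8% of cells without. The direction was the same for C1ra, with 26.8, 37.0 and 40.1% of positive cells against 11.98, 19.4 and 21.3% of negative cells. In WT, C3 was in none of the 1, 3 and 2 cells with a C4b UMI, against 0.456, 0.659 and 0.857% of cells without, and in 2 of 61, 3 of 131 and 1 of 43 cells with a C1ra UMI, and with C1s1 WT library 2 went the other way, with 0 of 128 cells against 0.764% of cells without. WT cells with C3 were too few to give a direction. Cells of 1 library are not replicates, and no test was made.

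In macrophages, Cfb rose in Kmt2c KO tumours. It was at 113, 188 and 214 CPM in WT, at 535, 502 and 619 CPM in Kmt2c KO and at 168, 497 and 86.7 CPM in Kmt2d KO. All Kmt2c KO libraries and Kmt2d KO library 2 lay above WT, and the other Kmt2d KO libraries did not. The log2 fold change was 1.72 ± 0.43 in Kmt2c KO (SE, edgeR adjusted p = 0.0272), and leaving out any WT or Kmt2c KO library ended the call, at adjusted p of 0.0593 to 0.123. In the macrophage gate endothelial-list markers summed to 13.3 to 80.8 CPM in WT, 54.5 to 202 CPM in Kmt2c KO and 9.91 to 112 CPM in Kmt2d KO, and fibroblast-list markers to 24.2 to 53.3, 35.4 to 160 and 11.8 to 86.7 CPM. The endothelial list summed to 8971 to 10514 CPM in the endothelial gate of Kmt2c KO, where Cfb was at 228 to 430 CPM, below its level in the macrophages of the same libraries. The part of other cells in C3 and Cfb of macrophages was not tested. Cfb was the only 1 of 3 tested members called, beside 4.41% of genes called higher and 6.4% called in either direction. In Kmt2d KO its difference was 0.61 ± 0.45 (adjusted p = 0.885), and −0.34 without library 2 (adjusted p = 0.965). None of the 3 was called there, by edgeR at an adjusted or unadjusted p under 0.05 or by DESeq2, beside 0.0284% of all genes.

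C3 in macrophages was at 66.6, 52.0 and 113 CPM in WT, at 218, 342 and 427 CPM in Kmt2c KO and at 89.2, 349 and 52.0 CPM in Kmt2d KO. The Kmt2c KO libraries did not overlap WT, and only library 2 of Kmt2d KO exceeded it. In the Kmt2c KO libraries endothelial cells held C3 at 0 to 23.6 CPM and T cells of libraries 2 and 3 at 32.3 and 0 CPM, below the macrophages of the same libraries. The 5 T cells of library 1 were too few to compare. C4b in macrophages rested on 0 to 32 UMIs a library, with Kmt2c KO at 262, 66.7 and 80.9 CPM and WT at 0, 26.0 and 64.6 CPM. Without Kmt2d KO library 2 the fold changes of Kmt2d KO against WT turned from 1.11 to −0.076 for C3 and from 0.99 to −1.09 for C4b on the log2 scale.

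The receptors did not pass the test. C3ar1, the receptor of the C3 fragment, was at 200, 351 and 210 CPM in WT, at 338, 284 and 361 CPM in Kmt2c KO and at 243, 142 and 121 CPM in Kmt2d KO. Each knockout overlapped WT, and the Kmt2c KO libraries lay above the Kmt2d KO libraries. Its difference from WT was 0.43 in Kmt2c KO (95% interval −0.13 to 1.00, adjusted p = 0.442) and −0.50 in Kmt2d KO (−1.11 to 0.11, adjusted p = 0.856), or −0.36 without library 2. C5ar1, the receptor of the C5 fragment, was at 153, 78.0 and 88.9 CPM in WT, at 32.7, 63.8 and 40.4 CPM in Kmt2c KO and at 99.1, 118 and 8.67 CPM in Kmt2d KO. The Kmt2c KO libraries lay below WT, at a log2 difference of −1.02 (−1.95 to −0.09, adjusted p = 0.225), on 3 to 22 UMIs a library. Between the knockouts none of 5 members was called in macrophages, beside 0.199% of genes, with 3 at an unadjusted p under 0.05 and none by DESeq2. The count at unadjusted p stands without the share over all genes and says nothing about the members. Without Kmt2d KO library 2, C3 and Cfb were called lower in Kmt2d KO than in Kmt2c KO (−2.23 and −2.07, adjusted p = 0.00228 and 0.00149), in a fit in which 209 of 4126 genes were called. That library was left out after its values were seen, so these p-values add no support. Serping1 gave 0 UMIs in the macrophages of all 9 libraries.

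Endothelial cells showed their main differences in Serping1 and Cfb. Serping1 was at 5.47, 45.0 and 36.7 CPM in WT, at 481, 567 and 849 CPM in Kmt2c KO and at 13.9, 687 and 18.9 CPM in Kmt2d KO. Kmt2c KO libraries and Kmt2d KO library 2 stood far above WT, and the other Kmt2d KO libraries lay within the WT range. The log2 fold change was 4.41 in Kmt2c KO and 2.88 in Kmt2d KO, and it turned to −0.86 in Kmt2d KO without library 2. Mural-list markers summed to 73.9 to 141 CPM in WT and 53.1 to 363 CPM in Kmt2c KO endothelial cells, and to 76.6 to 162 CPM in Kmt2d KO. Fibroblast-list markers summed to 7.51 to 18.3 CPM in WT and 22.6 to 116 CPM in Kmt2c KO, without overlap. They summed to 24.4, 9.82 and 141 CPM in Kmt2d KO libraries 1 to 3. Rgs5, a marker of the mural list, was at 0, 44.2 and 5.41 CPM in those libraries, the 44.2 CPM resting on 1 cell. Library 2, where Serping1 was high, was thus the lowest of its group for the fibroblast list and the highest for Rgs5. Rgs5 is 1 of 6 markers of the mural list, whose sum is not given here for each library. In Kmt2c KO libraries 1 to 3 Rgs5 was at 5.65, 162 and 0 CPM. Serping1 was at a pooled 869 CPM in the Col1a1 fibroblast subset. The part of mural or fibroblast RNA in Serping1 and Cfb of endothelial cells was not tested.

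Cfb in endothelial cells was at 54.7, 75.1 and 71.3 CPM in WT, at 351, 228 and 430 CPM in Kmt2c KO and at 52.2, 285 and 51.4 CPM in Kmt2d KO. As for Serping1, the Kmt2c KO libraries and Kmt2d KO library 2 lay above WT and the other Kmt2d KO libraries did not. Cfb rose in Kmt2c KO by 2.32 ± 0.47 on the log2 scale (SE, edgeR adjusted p = 0.00996), as the only tested member, beside 4.35% of genes called higher and 6.28% called in either direction. The call was lost without WT library 1 (adjusted p = 0.0554) or Kmt2c KO library 3 (0.0537). In Kmt2d KO it was 0.81 ± 0.51 (adjusted p = 0.653), beside 0.0375% of genes called, and −0.41 without library 2. The knockouts were not called different in Serping1 (−1.53 ± 0.81, adjusted p = 0.564) or Cfb (−1.51 ± 0.47, adjusted p = 0.286), beside 0.113% of genes. Without Kmt2d KO library 2 both were called lower in Kmt2d KO, at −5.26 (adjusted p = 2.18e-10) and −2.72 (adjusted p = 1.04e-07), in a fit in which 312 of 6192 genes were called. That library was left out after its values were seen, so these p-values add no support. For Serping1 the other Kmt2d KO libraries lay within the WT range. This difference therefore came close to the knockout against WT comparison on which the gene was chosen. C3 gave 0 to 5 UMIs a library in endothelial cells.

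**Figure D4:**
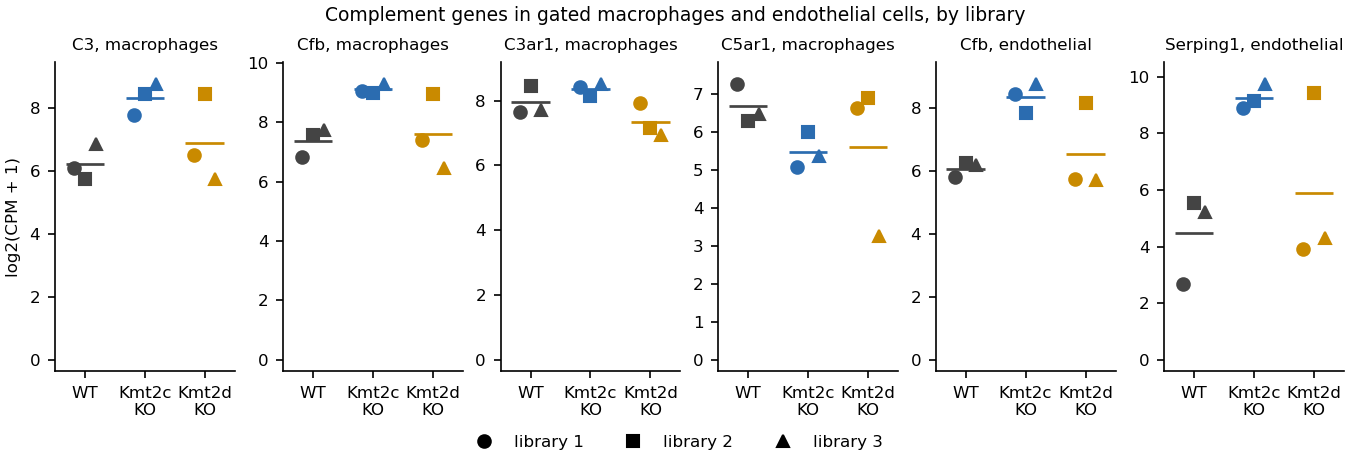
Level of C3, Cfb, C3ar1 and C5ar1 in gated macrophages and of Cfb and Serping1 in gated endothelial cells as log2(CPM + 1), 1 point per library with the shape giving its number and a line at the mean of each genotype. Kmt2d KO library 2 (square) lies near the Kmt2c KO libraries for C3, Cfb and Serping1.

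Mural cells, with 3 to 24 cells a library and no test, held Serping1 at 1204, 873 and 957 CPM in WT, at 1774, 2467 and 2684 CPM in Kmt2c KO and at 978, 1690 and 458 CPM in Kmt2d KO. Again the Kmt2c KO libraries and Kmt2d KO library 2 lay above WT, but the value of Kmt2d KO library 2 rested on 3 cells, the fewest of any library.

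In the fibroblast-marker gate none of the 4 members tested against WT was called, beside 3.77% of genes in Kmt2c KO and 0.00917% in Kmt2d KO. For Kmt2c KO 1 member, Cd55, had an unadjusted p under 0.05 and was called by DESeq2. Between the knockouts none of 7 was called, where no gene passed, with 2 members at an unadjusted p under 0.05 and none by DESeq2. Counts at unadjusted p and by DESeq2 stand without the share over all genes and say nothing about the members. Against tumour cells of the same libraries all 7 members tested were called higher in this gate, beside 57% of genes called in either direction, although Serping1 and Cd55 were near 0 in tumour cells and passed the filter through the gate. Against macrophages 6 of 8 were called, beside 61.8% of genes, and C3 was not (0.23 ± 0.30, adjusted p = 0.535). The gate mixed cells of different kinds in different shares, Col1a1 ranging from 89.7 to 6832 CPM over the WT libraries. The Col1a1 subset held C3 at 1566, 74.5 and 846 CPM in WT, at 1792, 1099 and 751 CPM in Kmt2c KO and at 1533, 2365 and 112 CPM in Kmt2d KO. Serping1 was at 1189, 49.7 and 1153 CPM in WT, at 1596, 1216 and 905 CPM in Kmt2c KO and at 1001, 1133 and 81.5 CPM in Kmt2d KO. All groups overlapped in both genes, on 5 to 66 cells a library. Cd55 was at 84.9, 0 and 57.7 CPM in WT, at 49.0, 32.7 and 0 CPM in Kmt2c KO and at 72.2, 132 and 0 CPM in Kmt2d KO, on 0 to 28 UMIs a library. C3 was thus at high levels in WT cells of this subset, unlike in WT tumour cells. The remaining cells without Col1a1 held Serping1 at a pooled 1.25 CPM.

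Other complement genes were read from a list of 51, all in the feature table. In tumour cells 21 passed the filter. In Kmt2c KO 4 were called higher and 2 lower, beside 19% of all genes called, with a median log2 fold change of 0.36 against −0.00 over all genes. In Kmt2d KO 2 were called higher and 1 lower, beside 2.3% of all genes, with a median of 0.16. C1s2 rose by 1.44 ± 0.18 (adjusted p = 0.00100), C1rb by 2.75 ± 0.63 (0.0136) and Masp1, a protease of the lectin pathway, by 1.10 ± 0.15 (0.00134) in Kmt2c KO. The C1rb call was lost without any 1 of the WT libraries (adjusted p = 0.0514 to 0.0582). C1s2 was also called higher in Kmt2d KO, by 0.94 ± 0.18 (0.0269), a call that was lost without any 1 of the WT libraries or without Kmt2d KO library 3 (adjusted p = 0.0601 to 0.120). Masp1 was at 49.5, 49.5 and 46.5 CPM in WT, at 80.1, 97.9 and 136 CPM in Kmt2c KO and at 59.3, 65.7 and 58.2 CPM in Kmt2d KO, with no overlap between the groups. C1qb, a subunit of C1q that is typical of macrophages, was called higher in Kmt2c KO (1.78 ± 0.44, adjusted p = 0.0194, or 0.0569 to 0.0846 without any 1 of the WT libraries or Kmt2c KO library 3) at 3.09 to 4.19 CPM, against 3080 to 5008 CPM in macrophages of those libraries, and the part of free RNA was not tested.

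Fcna, which encodes a ficolin, fell by 0.62 ± 0.11 in Kmt2c KO (adjusted p = 0.00430) and by 0.58 ± 0.11 in Kmt2d KO (0.0202), where the call was lost without any 1 of the WT libraries or without Kmt2d KO library 1 or 3 (adjusted p = 0.0624 to 0.0972). Its level was 48.7, 48.8 and 50.9 CPM in WT, 36.6, 31.6 and 28.4 CPM in Kmt2c KO and 32.4, 35.8 and 33.1 CPM in Kmt2d KO. Every knockout library lay below every WT library. Hc, which encodes C5, gave 7, 17 and 9 UMIs in WT libraries 1 to 3, 0 to 2 in the Kmt2c KO libraries and 21, 2 and 39 in Kmt2d KO libraries 1 to 3. It was called lower in Kmt2c KO, but it passed the low-count filter only through the libraries where it was high, so the call adds no support.

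The list genes at the highest pooled level per UMI were Colec12 in tumour cells (368 CPM), C1qa in macrophages (3196 CPM) and Cd93 in endothelial cells (716 CPM).

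In macrophages 11 of the list were tested in Kmt2c KO against WT, and 1 was called higher and 1 lower, beside 6.4% of all genes. C1qc, a subunit of C1q, rose by 0.88 ± 0.25 (adjusted p = 0.0458), a call that was lost without WT library 1 or 3 or Kmt2c KO library 1 or 3 (adjusted p = 0.101 to 0.183). It was at 1826, 2762 and 1660 CPM in WT, at 4669, 2938 and 3475 CPM in Kmt2c KO and at 2442, 2577 and 1647 CPM in Kmt2d KO, and every Kmt2c KO library lay above every WT library. In endothelial cells 4 were tested, and C2, the partner of C4 in the classical convertase, was the 1 called, higher in Kmt2c KO. C2 gave 2 UMIs over the 3 WT libraries and 15, 13 and 9 in Kmt2c KO, so it passed the filter only through the libraries where it was high and the call adds no support. It gave 1, 8 and 0 UMIs in Kmt2d KO libraries 1 to 3, so that library 2 again stood with Kmt2c KO.

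**Figure D5:**
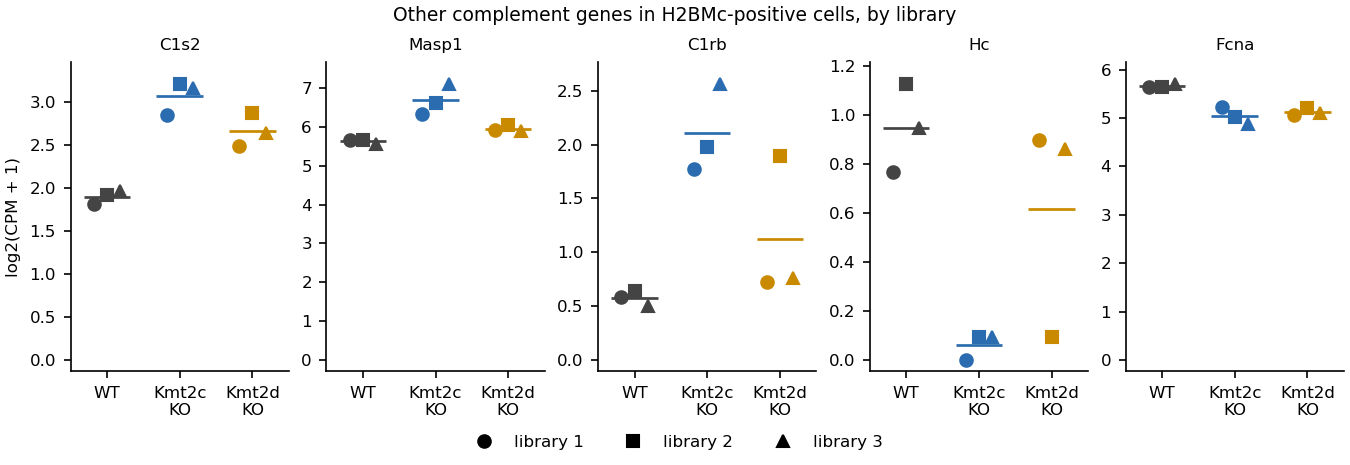
Level of C1s2, Masp1, C1rb, Hc and Fcna in H2BMc-positive cells as log2(CPM + 1), 1 point per library with the shape giving its number and a line at the mean of each genotype. All knockout libraries lie below WT for Fcna, and Kmt2d KO library 2 (square) lies with the Kmt2c KO libraries for C1rb and Hc.

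The genes whose levels over the 9 libraries were most like C3 in tumour cells were Speg, Ano8, Tapbp, Ly6c1 and Ing1, with Pearson r of 0.990, 0.989, 0.987, 0.985 and 0.984 among 8659 genes. For Serping1 in tumour cells, on 1 to 50 UMIs a library, the nearest were Mrpl39, Aatf, Lrwd1, Psip1 and Park7, at 0.904 to 0.883. For Serping1 in endothelial cells, a search added after the values had been seen, they were H2-Aa, Cd74, Gbp3, H2-Eb1 and H2-T23, at 0.987 to 0.976 among 8492 genes. The points share their 9 libraries and the separation of their groups, so these are descriptions.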

How the data were processed

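Cell Ranger 7.0.1 and build mm10 are named in the submitters' processing notes. The authors deposited 1 matrix of whole-number UMI counts per gene and barcode, without normalization. Library was read from the barcode suffix and genotype from the letter of the aggregation table, read as WT, Kmt2c KO or Kmt2d KO from the study's own sheet names. The numbers 1 to 3 only name libraries. Cells were kept with over 500 and under 7500 genes and under 15% mitochondrial counts. No doublet caller was run.

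A stromal or immune gate took cells with at least 3 detected markers of 1 class, more than of any other, and no H2BMc, Krt8 or Krt18, and tumour cells had under 3 markers of every class but fibroblasts. Counts were summed per library and class (at least 20 cells), filtered by filterByExpr, scaled by TMM and tested with edgeR 4.0.16 (glmQLFit, glmQLFTest) over all 9 libraries, or with the library as a block between classes. Calls needed a Benjamini-Hochberg adjusted p below 0.05 over all genes tested. Values given as SE were worked back from edgeR's test, as the absolute log2 difference over the square root of its F statistic. The code was tested on simulated data. DESeq2 1.42.0 and other filters, gates and fits served as alternatives. The members, gene lists and markers were chosen with earlier results of these data known. Named genes were the members, list genes called or leading a class, and the 5 nearest to C3 and Serping1. Promoter windows were from RefSeq, GRCm38.p6. The values of 1 list gene are not reported here.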

Additional observations from a re-analysis of the deposited data

Results flagged for a closer look

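Cells of no gate, which enter no comparison above, also carried C3 above the WT level. Pooled C3 was 188 CPM in Kmt2c KO and 80.8 CPM in Kmt2d KO, against 7.68 CPM in WT (18 UMIs in 554 cells). The libraries ranged from 4.56 to 12.8 CPM in WT, from 138 to 237 CPM in Kmt2c KO and from 23.0 to 173 CPM in Kmt2d KO, without overlap with WT. These cells had a median of 2002 UMIs and were not assigned to a type. Their mixture differed between WT and knockout libraries. Ptprc, the leukocyte gene, was detected in 14.6 to 28.2% of them in WT libraries and in at most 11.4% in knockout libraries. The part of this mixture in the C3 difference was not tested.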

How the results depend on the processing

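No paired analysis was possible because the library names carry no replicate numbers of the labels. In tumour cells, the number of members called between Kmt2d KO and Kmt2c KO moved from 0 to 4 with no low-count filter, 2 with DESeq2 and 1 with at least 2 H2BMc UMIs, and that of other complement genes from 0 to 3 with DESeq2. The 1 member called in Kmt2d KO against WT, Cfb, fell to 0 in a fit of only those groups, with thinned cells and in cells with Krt8 but no H2BMc UMI. With no filter, members called in macrophages and in endothelial cells were 2 for Kmt2c KO against WT and 2 between the knockouts, and in the fibroblast-marker gate 2, 1 (Kmt2d KO against WT) and 2. DESeq2 called 1 there in Kmt2c KO. These counts of members and of other complement genes stand without the share over all genes in each fit. They say nothing about complement genes apart from other genes. The median C3 share fell on thinning from 2.47 to 0.657% in WT and from 38.1 to 23.9% in Kmt2c KO, or to 1.01 and 25.7% with at least 2 H2BMc UMIs. The cause of these changes was not tested. Over all genes in tumour cells, the 323 calls of Kmt2d KO against WT became 536 with no filter, 695 with DESeq2, 183 in the fit of those groups and 68 after thinning, and the 10 between the knockouts became 591, 591, 0 and 32. Thinning moved the number called in Kmt2c KO from 2673 to 1015. In the other classes, dropping the filter raised the Kmt2c KO calls from 225 to 525 in macrophages, 335 to 607 in endothelial cells and 411 to 1428 in the fibroblast-marker gate.

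Leaving out 1 library at a time, members called in tumour cells ranged from 2 to 3 in Kmt2c KO, 0 to 1 in Kmt2d KO and 0 to 5 between knockouts, and other complement genes from 3 to 10, 0 to 3 and 0 to 10. In macrophages and in endothelial cells the ranges were 0 to 1 in Kmt2c KO and 0 to 2 between knockouts, and in the fibroblast-marker gate 0 to 1 for both. The highest counts between knockouts came without Kmt2d KO library 2, as did the 10 for Kmt2c KO. Without it, calls over all genes between the knockouts also rose. They went from 0.0713% of genes in tumour cells, 0.199% in macrophages and 0.113% in endothelial cells to the counts given above. The ranges stand without the share over all genes in each fit, so they say nothing about complement genes apart from other genes.

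Untested log2 values against WT that changed sign are given with their range over libraries left out. In Kmt2d KO, C3 ranged from −0.076 to 1.53 and C4b from −1.09 to 2.34 in macrophages, and Serping1 from −0.86 to 3.53 in endothelial cells, each lowest without Kmt2d KO library 2. In the fibroblast-marker gate, where WT library 1 held most of the Col1a1 signal of its group, C3 ranged from −0.53 to 1.94 in Kmt2c KO and from −0.64 to 1.84 in Kmt2d KO, C4b from −0.59 to 2.05 and from −0.85 to 1.80, and Serping1 from −1.91 to 0.11 in Kmt2d KO, each highest without that library. C4b in Kmt2c KO also turned to 0.049 with no low-count filter, 0.18 with no cell filters and 0.34 with 2 markers, C3 in Kmt2c KO to −0.73 with 4 markers, and C3 in Kmt2d KO to 0.14 with no cell filters and 0.12 with 2 markers.

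Small classes limit the stromal results: macrophages gave 91661 to 395676 UMIs a library, so members with few UMIs could not be tested.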
